A study of Zea mays with 16 samples.

Results

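Among the probe sets of a maize root microarray, 205 of 17621 (1.16%) stood at least 5-fold higher under moderate waterlogging than in control roots of both inbred lines studied, HKI1105 and V-372. A probe set is a group of short probes that reads the transcript of a gene, and its level is a log2 value. The members were chosen from those 8 arrays alone, by the mean of the 2 control and the 2 moderate arrays of each line. Their rise at the moderate stage is therefore the criterion of choice and is given as a description with no test. The severe and recovery arrays took no part in the choice. The array cannot tell less RNA per cell from fewer cells of a type.

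The samples were root RNA on 16 arrays, 2 in each of 8 groups. HKI1105, labelled tolerant of waterlogging, and V-372, labelled susceptible, were each sampled on day 28 after sowing before any waterlogging (control), on day 32 (moderate), on day 35 after 7 days under 5 cm of standing water (severe), and on day 42 (recovery). All plants grew in pots 35 cm tall that were watered daily until the stress. Per the labels the pots were sealed on day 29 and drained on day 35, but the methods have watering end on day 28 and the seal taken off only on day 42, the labelled day of the recovery sampling. The recovery roots may thus follow 7 days of drainage or almost none, and "after drainage" stands below for recovery minus severe and no more. No unstressed roots of a later day were measured, so that stage and plant age cannot be told apart. The labels name the paired arrays of each group as biological replicates and the methods as technical ones, so a p-value here reflects the spread of arrays, which may be technical.

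Waterlogging fills the air spaces of soil and cuts the supply of oxygen to roots. Root cells then draw energy from glycolysis and regenerate its cofactor by fermentation to ethanol, which starts with pyruvate decarboxylase. Ethylene collects in the flooded tissue, transcription factors of the ethylene response family act downstream of it, and wall-loosening proteins take part in growth and in the opening of gas channels. Proteins of photosynthesis belong to the green chloroplasts of leaves, and root plastids usually hold few of them.

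Of the 205 members, 55 could be named. The named members were 30 probe sets for chloroplast proteins, 6 for the cell wall, 5 for defence, 4 for transcription factors, 2 for stress proteins, 1 for fermentation and 7 for other metabolism and transport. The remaining 150 stayed unnamed. Several probe sets can read the same gene or close copies of it: 36 members fell in 14 probe set clusters with more than 1 member. The transcript of ERF-like1, an ethylene response factor, is the member for which the study's primers are given, and they identify the amplified stretch. Capitals are not used because no part of a primer is singled out.
ERF-like1 forward primer: gtggagcttcgaggactacta
ERF-like1 reverse primer: cgcgagccacagatacaaa

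Some groups stood apart from the rest. In the HKI1105 control arrays, 24 added control probe sets had a median level of 10.13, against 6.24 to 7.85 in the other 7 groups. Of 10 root marker probe sets, 3 were higher in the HKI1105 than in the V-372 control by more than 1 log2 unit, among them 2 of the silicon channel Lsi1, and 4 were lower. The lower ones were the aquaporins TIP2-1 and TIP2-2 and 2 probe sets of nas1, and TIP2-2 averaged 4.54 in the HKI1105 control and 12.48 in the V-372 control. With the V-372 control in place of the HKI1105 control, 183 of the 205 members still met the rule. That swap leaves the rise in V-372 as it was, so every member meets that part in advance. The median control level of the members was also lower in V-372 (3.69) than in HKI1105 (4.66), which eases the other part. Arrays of a group correlated at 0.996 to 0.999 over all probe sets. The levels of 22 leaf marker probe sets, 12 of them members, also differed between groups. Their summed log2 level was 134.8 to 138.1 over the arrays of the HKI1105 control, 198.7 to 199.7 at moderate, 181.5 to 181.6 at severe and 113.4 at recovery. In V-372 it was 95.1 to 96.7 in the control, 167.3 to 168.7 at moderate, 233.5 to 233.7 at severe and 161.5 to 162.2 at recovery. The V-372 severe arrays were thus the highest in leaf markers, and the HKI1105 control arrays stood above those of V-372. The 12 members were higher at moderate by the rule. Counting them, 19 of the 22 were higher than in control by more than 1 log2 unit in HKI1105 and 16 in V-372. The C4 genes ME1 and mdh6 and members of pdk1 were among them in both lines. The gene for the leaf form of phosphoenolpyruvate carboxylase, pep1, was not. It was at or near the lowest value of the whole table in moderate roots of both lines, and it averaged 11.16 in severe V-372 roots. It was 8.04 in the HKI1105 control and 2.73 in the V-372 control.

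At moderate no member was within 1 log2 unit of the lowest value of the table. In HKI1105 their median was 9.37 at moderate and 4.66 in the control, and in V-372 it was 9.20 at moderate and 3.69 in the control. In control roots 43 members of HKI1105 and 76 of V-372 averaged within 1 log2 unit of the lowest value, and 25 did so in both lines, where the array could not read a lower level. The log2 rise was 2.34 to 10.81 in HKI1105 (median 4.05) and 2.39 to 10.24 in V-372 (median 4.37). Over the array 5.98% of probe sets were 5-fold higher in HKI1105 and 2.37% in V-372, and 1.16% in both. At the edge of the rule, the members just inside were the gene models GRMZM2G027663, with rises of 3.38 in HKI1105 and 2.39 in V-372, GRMZM2G464328, with 2.34 in HKI1105 and 2.75 in V-372, and psa6, with 2.34 in HKI1105 and 5.35 in V-372. Just outside were a probe set with no gene model, at 3.38 in HKI1105 and 2.31 in V-372, GRMZM2G058279, at 2.44 in HKI1105 and 2.29 in V-372, and GRMZM2G080355, at 3.63 in HKI1105 and 2.28 in V-372.

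The stage with the highest level of a member was read with the same control and moderate arrays that chose it. The rule therefore favours moderate and leaves out control, here and for each group below, and these counts are descriptions. For HKI1105, 176 of the 205 members were highest at moderate, 11 at severe and 18 at recovery, where 20.9%, 12.4% and 19.0% of all probe sets were highest at these stages. In V-372, 100 were highest at moderate, 92 at severe and 13 at recovery, where 14.2%, 17.8% and 23.7% of all probe sets were. Severe was above moderate for 15 members in HKI1105 and for 97 in V-372. A peak at moderate in both lines was found for 87 members, and a peak at moderate in HKI1105 with a peak at severe in V-372 for another 87. At the severe stage 142 members were still at least 5-fold over control in HKI1105, where 4.06% of all probe sets were. In V-372 there were 127, against 5.85% of all probe sets. At recovery the counts were 52 in HKI1105, against 3.19% of all probe sets, and 126 in V-372, against 2.97%. These counts share the control arrays with the rule and are descriptions. In both lines and at both later stages, 16 members stayed at least 5-fold over control, among them sat1 and sxd1, against 0.153% of all probe sets.

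**Figure D1:**
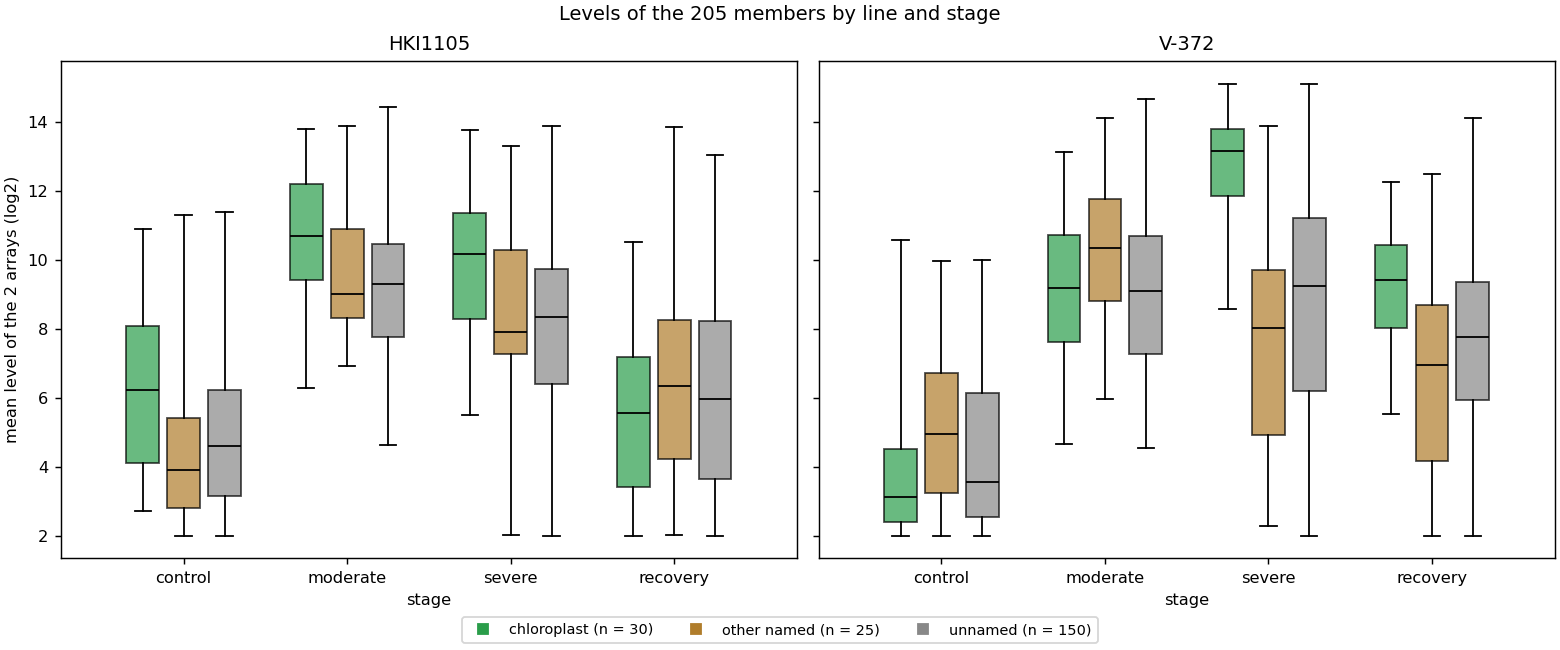
Levels of the 205 members in each line and stage, as the mean of 2 arrays on a log2 scale, for 30 chloroplast members, 25 other named members and 150 unnamed members. Boxes span the quartiles with the median as a line, and whiskers reach the lowest and highest member. The chloroplast members are highest in severe V-372 roots, and the other named members are highest at the moderate stage in both lines.

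Most members were lower at recovery than at the severe stage in both lines. Between the severe and the recovery arrays of HKI1105, 152 members fell and 27 rose (limma, adjusted p under 0.05 over 17734 probe sets), where 14.7% of all probe sets fell and 16.2% rose. In V-372, 147 fell and 36 rose, against 20.6% falling and 28.8% rising over the array. The median change of the members was -2.26 in HKI1105 and -1.87 in V-372, and that of all probe sets was 0.00 in each line. In both lines 130 of the members fell (63.4%), and 7.54% of all probe sets did so. Another 16 rose in both lines, against 9.98% of all probe sets, and 17 moved in opposite directions, against 6.01%. Without the 30 chloroplast members, 123 of 175 members fell in HKI1105 and 117 of 175 in V-372.

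**Figure D2:**
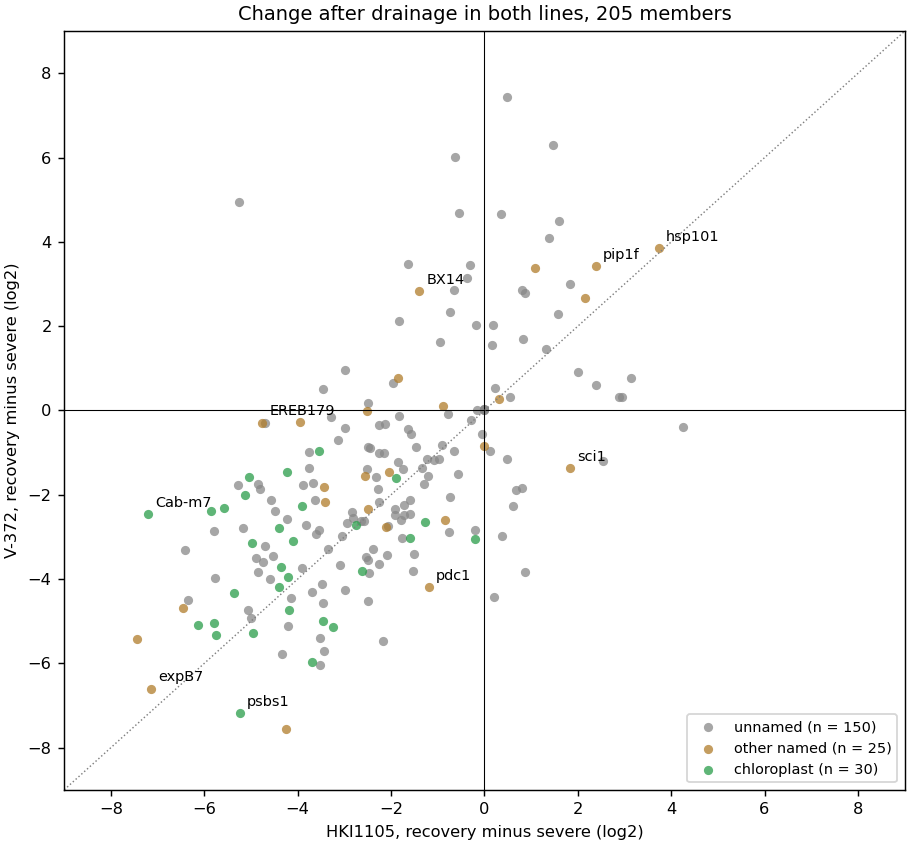
Recovery minus severe on the log2 scale for each of the 205 members, HKI1105 on the horizontal axis and V-372 on the vertical axis, with the line of equal change dotted. Most points have both values below 0, hsp101 and pip1f lie in the upper right, and EREB179, BX14, pdc1 and sci1 lie away from the dotted line.

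Fermentation was represented by pdc1, a gene of pyruvate decarboxylase. In HKI1105 pdc1 had levels of 2.65 and 3.74 in control, 10.67 and 10.63 at moderate, 7.91 and 8.16 at severe and 6.8 and 6.9 at recovery. V-372 arrays of pdc1 gave 8.18 and 8.11 in control, 12.76 and 12.92 at moderate, 10.82 and 10.74 at severe and 6.54 and 6.64 at recovery. All moderate arrays were above all control arrays of their line, and the HKI1105 control arrays were far below those of V-372. pdc1 fell by 1.19 ± 0.28 after drainage in HKI1105 (adjusted p = 0.0106) and fell by 4.19 ± 0.28 in V-372 (adjusted p = 1.86e-06). The difference between the lines in this change was 3.0 ± 0.39 (adjusted p = 0.000266). A second probe set for pdc1 gave another picture in HKI1105, with means of 2.80 at moderate and 2.42 in the control, near the lowest value. In V-372 its means were 7.14 at moderate and 2.55 in the control. Of 9 annotated probe sets for fermentation genes, 1 was a member. At least 5-fold higher at moderate were 1 of the 9 in HKI1105 and 4 in V-372. The probe sets for pdc2, another pyruvate decarboxylase gene, changed at moderate by -1.96, 0.15, -1.53 and 0.0 in HKI1105. In the same order they changed by 4.66, 6.78, 0.19 and 0.0 in V-372. Alcohol dehydrogenase 1, adh1, averaged 13.95 at moderate and 12.17 in control in HKI1105, and 14.38 at moderate and 13.56 in control in V-372. None of 13 glycolysis and none of 10 sucrose cleavage probe sets was a member. Over the array 1.16% of probe sets were members, so lists this short may hold none without being set apart.

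The 4 transcription factors among the named members all peaked at moderate in both lines. ERF1 is a gene of the ethylene response factor family. HKI1105 arrays gave ERF1 levels of 8.08 and 8.2 in control, 12.72 and 12.68 at moderate, 11.77 and 11.65 at severe and 9.24 and 9.17 at recovery. In V-372 ERF1 was at 9.97 and 10.0 in control, 13.81 and 13.75 at moderate, 11.52 and 11.4 at severe and 9.04 and 9.23 at recovery. The stages did not overlap within a line. Between severe and recovery ERF1 fell by 2.5 ± 0.07 in HKI1105 (adjusted p = 5.61e-08) and fell by 2.33 ± 0.07 in V-372 (adjusted p = 1.55e-08). The difference between the lines in this change was -0.17 ± 0.10 (adjusted p = 0.238). ERF-like1, of the same family, was low in the HKI1105 control. ERF-like1 read 2.01 and 2.76 in control, 8.95 and 8.97 at moderate, 7.6 and 7.71 at severe and 3.7 and 4.77 at recovery in HKI1105. In V-372 ERF-like1 read 7.34 and 7.33 in control, 11.79 and 11.78 at moderate, 9.11 and 8.87 at severe and 6.74 and 6.88 at recovery. Its moderate arrays were the highest of each line. ERF-like1 fell by 3.42 ± 0.32 after drainage in HKI1105 (adjusted p = 6.54e-05) and fell by 2.18 ± 0.32 in V-372 (adjusted p = 0.000402).

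EREB179, which also belongs to the ethylene response family, was at or near the lowest value in all control arrays. In HKI1105 EREB179 had levels of 2.01 and 2.01 in control, 7.76 and 8.03 at moderate, 6.99 and 7.2 at severe and 2.06 and 2.62 at recovery. V-372 arrays of EREB179 gave 2.01 and 2.01 in control, 6.97 and 7.01 at moderate, 2.31 and 2.28 at severe and 2.01 and 2.01 at recovery. It was still high in severe HKI1105 roots and near the lowest value in severe V-372 roots, a difference of 4.80 ± 0.16 (adjusted p = 2.35e-08). LOB15, of the lateral organ boundaries family of transcription factors, had the like pattern. HKI1105 arrays gave LOB15 levels of 3.33 and 4.14 in control, 8.82 and 9.04 at moderate, 8.3 and 7.52 at severe and 5.24 and 5.54 at recovery. In V-372 LOB15 was at 4.2 and 4.33 in control, 9.3 and 9.4 at moderate, 4.18 and 4.2 at severe and 4.17 and 4.17 at recovery. At the severe stage it was higher in HKI1105 than in V-372 by 3.72 ± 0.29 (adjusted p = 5.68e-06). Both genes then fell in HKI1105, EREB179 by 4.76 ± 0.16 (adjusted p = 1.32e-07) and LOB15 by 2.52 ± 0.29 (adjusted p = 0.000208), and the change after drainage was -0.29 ± 0.16 for EREB179 and -0.02 ± 0.29 for LOB15 in V-372 (adjusted p = 0.186 and 1.0 for these genes). The lines differed in this change for LOB15, by -2.5 ± 0.41. EREB179 was within 1 log2 unit of the lowest value in severe V-372 roots and could hardly fall there, so its difference of -4.47 ± 0.23 between the lines repeats the one at severe and is no separate result. Of 8 annotated probe sets for ethylene synthesis, receptors and response, ERF1 was the only member. The gene acco20 of that list, for an enzyme of ethylene synthesis, averaged 2.48 in moderate and 11.05 in control roots of HKI1105, and 3.97 in moderate and 6.94 in control roots of V-372.

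**Figure D3:**
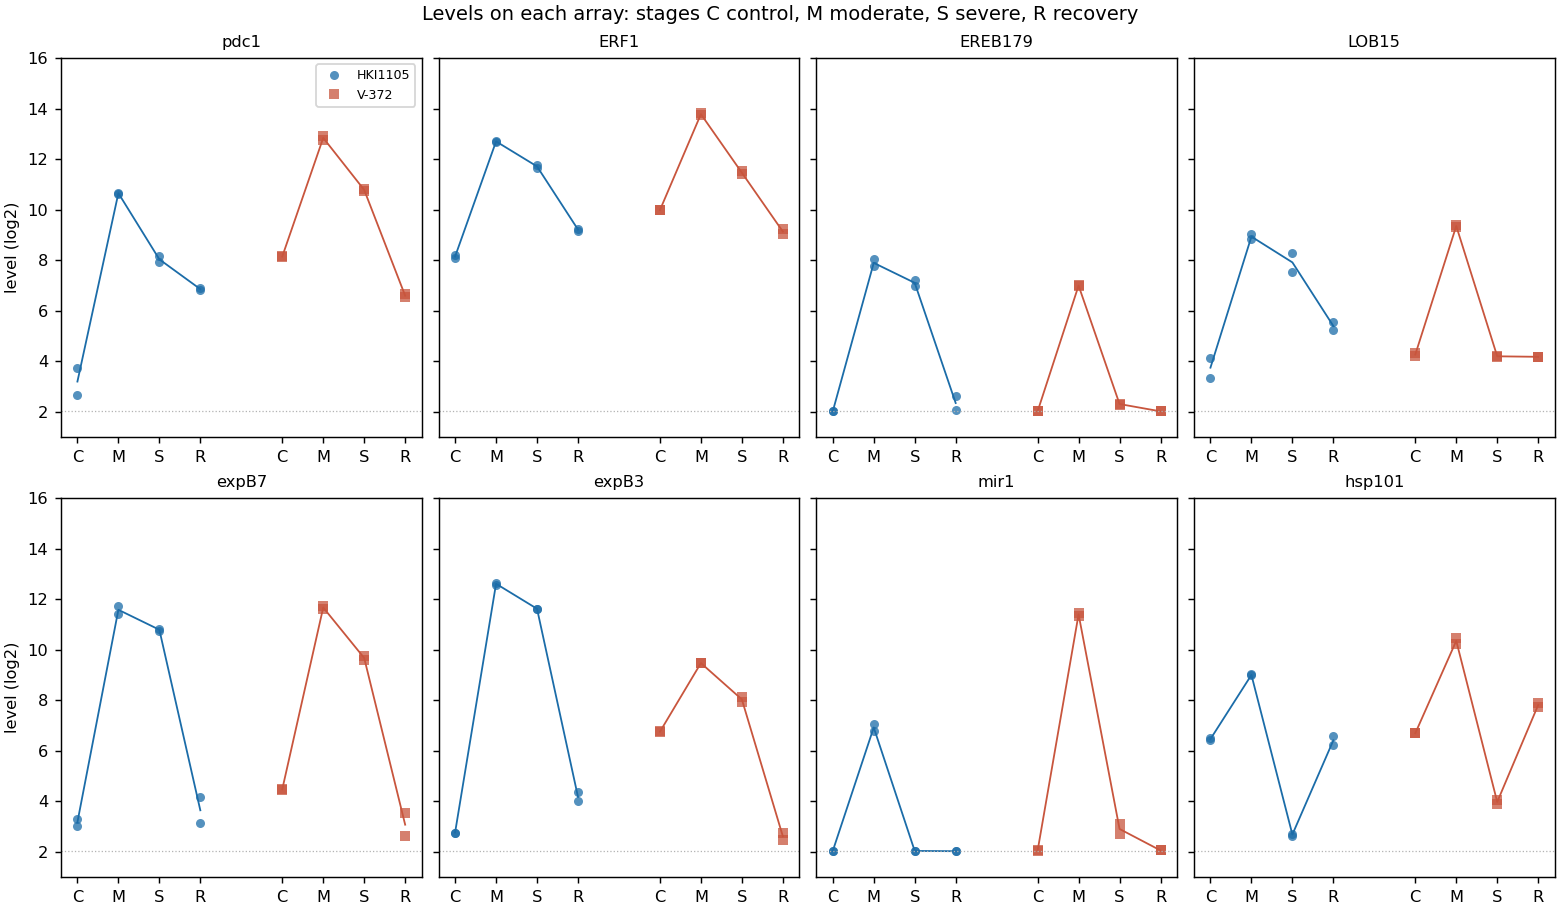
Log2 levels of 8 named members on every array, HKI1105 as blue circles at the left of each panel and V-372 as red squares at the right, with lines through the means of 2 arrays and the lowest value of the table dotted. In all 8 genes the moderate arrays are the highest of their line, and EREB179 and LOB15 are high at the severe stage in HKI1105 and low in V-372.

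All 6 cell wall members peaked at moderate in both lines. The beta-expansin gene expB7 had the largest rise of any named member, taking the smaller of its changes in the 2 lines. Beta-expansins loosen the walls of grasses. expB7 read 3.31 and 3.02 in control, 11.42 and 11.73 at moderate, 10.75 and 10.83 at severe and 3.12 and 4.15 at recovery in HKI1105. In V-372 expB7 read 4.46 and 4.47 in control, 11.71 and 11.63 at moderate, 9.75 and 9.6 at severe and 2.63 and 3.52 at recovery. The moderate and severe arrays were far above control and recovery in both lines. From severe to recovery expB7 fell by 7.15 ± 0.35 in HKI1105 (adjusted p = 1.08e-06) and fell by 6.6 ± 0.35 in V-372 (adjusted p = 4.51e-07). A second beta-expansin, expB3, stood 9.86 higher at moderate than in control in HKI1105 and 2.72 higher in V-372. In HKI1105 expB3 had levels of 2.76 and 2.76 in control, 12.57 and 12.66 at moderate, 11.62 and 11.63 at severe and 3.99 and 4.35 at recovery. V-372 arrays of expB3 gave 6.74 and 6.76 in control, 9.46 and 9.47 at moderate, 7.94 and 8.12 at severe and 2.46 and 2.76 at recovery. Its severe arrays were higher in HKI1105 than in V-372 by 3.59 ± 0.12 (adjusted p = 2.98e-08), and its control arrays were lower. expB3 fell by 7.45 ± 0.12 after drainage in HKI1105 (adjusted p = 2.27e-09) and fell by 5.42 ± 0.12 in V-372 (adjusted p = 2.77e-09). The V-372 recovery level of expB3 was within 1 log2 unit of the lowest value, so a larger fall could hardly be read there.

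The gene described as a cortical cell-delineating protein precursor followed the same order of stages as the expansins. HKI1105 arrays gave the cortical gene levels of 3.24 and 3.24 in control, 11.51 and 11.47 at moderate, 9.97 and 9.89 at severe and 3.7 and 3.24 at recovery. In V-372 the cortical gene was at 3.83 and 3.84 in control, 9.82 and 9.81 at moderate, 7.36 and 7.21 at severe and 2.41 and 2.79 at recovery. Between severe and recovery the cortical gene fell by 6.46 ± 0.15 in HKI1105 (adjusted p = 1.51e-08) and fell by 4.69 ± 0.15 in V-372 (adjusted p = 1.83e-08). Its V-372 recovery level was within 1 log2 unit of the lowest value, which limits the fall that can be read there. xet1, for a xyloglucan endotransglycosylase that cuts and rejoins wall polysaccharides, stayed far above control after drainage in V-372 and also above it in HKI1105. xet1 read 11.32 and 11.27 in control, 13.81 and 13.96 at moderate, 13.32 and 13.28 at severe and 13.6 and 13.63 at recovery in HKI1105. In V-372 xet1 read 8.27 and 8.37 in control, 13.52 and 13.64 at moderate, 12.29 and 12.12 at severe and 12.51 and 12.45 at recovery. Its recovery arrays exceeded its severe arrays by 0.32 ± 0.07 in HKI1105 (adjusted p = 0.00865) and by 0.27 ± 0.07 in V-372 (adjusted p = 0.0099). P4H4 and P4H6 encode prolyl 4-hydroxylases, which modify proline in wall glycoproteins. P4H4 averaged 3.76, 9.35, 7.46 and 6.57 over the 4 stages in HKI1105 and 4.96, 11.87, 7.1 and 7.20 in V-372. Of 20 annotated wall-loosening probe sets, 3 were members, 12 were at least 5-fold higher at moderate in HKI1105 and 3 in V-372. Most expansins of that list were near the lowest value in the HKI1105 control: expa1 averaged 10.57 at moderate and 2.2 in control in HKI1105, and 11.06 at moderate and 9.96 in control in V-372.

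The 5 defence members were all highest at moderate in V-372, and 3 of them in HKI1105. mir1, for a cysteine protease known for resistance to caterpillars, stayed at or near the lowest value in HKI1105 except at moderate. In HKI1105 mir1 had levels of 2.03 and 2.03 in control, 6.77 and 7.06 at moderate, 2.03 and 2.03 at severe and 2.03 and 2.02 at recovery. V-372 arrays of mir1 gave 2.06 and 2.03 in control, 11.35 and 11.44 at moderate, 2.71 and 3.09 at severe and 2.06 and 2.05 at recovery. It was within 1 log2 unit of the lowest value in both lines at severe, as were 7 unnamed members. mir1 and 5 of those were at that level at recovery as well. Of those, the gene model GRMZM2G037284 read 8.34 and 8.07 in moderate HKI1105 roots and 8.46 and 8.82 in moderate V-372 roots, and was at the lowest value on all 12 other arrays.

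A gene described as a chitinase, an enzyme that cuts fungal walls, was among the members with the largest rise by that ranking. HKI1105 arrays gave the chitinase gene levels of 3.6 and 2.01 in control, 9.16 and 9.0 at moderate, 8.36 and 8.22 at severe and 4.72 and 5.0 at recovery. In V-372 the chitinase gene was at 2.02 and 2.03 in control, 12.18 and 12.36 at moderate, 9.01 and 9.19 at severe and 7.29 and 7.3 at recovery. The chitinase gene fell by 3.43 ± 0.4 after drainage in HKI1105 (adjusted p = 0.000229) and fell by 1.81 ± 0.4 in V-372 (adjusted p = 0.00441). Inhibitors of proteases were also found. The cystatin gene psei6 was highest at moderate in both lines. psei6 read 2.29 and 3.22 in control, 8.03 and 8.06 at moderate, 5.76 and 5.98 at severe and 3.66 and 4.0 at recovery in HKI1105. In V-372 psei6 read 3.22 and 3.26 in control, 9.9 and 9.88 at moderate, 5.27 and 4.09 at severe and 3.23 and 3.2 at recovery. From severe to recovery psei6 fell by 2.04 ± 0.38 in HKI1105 (adjusted p = 0.00332) and fell by 1.47 ± 0.38 in V-372 (adjusted p = 0.0101). The serine protease inhibitor gene sci1 moved in opposite directions in the lines after drainage. In HKI1105 sci1 had levels of 11.09 and 11.0 in control, 13.68 and 13.65 at moderate, 12.06 and 11.99 at severe and 13.88 and 13.86 at recovery. V-372 arrays of sci1 gave 6.99 and 6.47 in control, 14.05 and 14.2 at moderate, 13.85 and 13.91 at severe and 12.6 and 12.43 at recovery. The lowest arrays were those of the V-372 control. After drainage sci1 rose by 1.84 ± 0.14 in HKI1105 (adjusted p = 1.9e-05), and it fell by 1.37 ± 0.14 in V-372 (adjusted p = 3.93e-05). BX14, for an enzyme that modifies benzoxazinoid defence compounds, likewise changed in opposite directions. HKI1105 arrays gave BX14 levels of 4.26 and 4.37 in control, 7.21 and 6.84 at moderate, 8.15 and 8.17 at severe and 6.75 and 6.78 at recovery. In V-372 BX14 was at 4.03 and 4.77 in control, 11.55 and 11.38 at moderate, 6.51 and 6.23 at severe and 9.17 and 9.22 at recovery. In V-372 the moderate arrays stood out, and in HKI1105 the severe ones. After drainage BX14 fell by 1.4 ± 0.22 in HKI1105 (adjusted p = 0.00129), and it rose by 2.83 ± 0.22 in V-372 (adjusted p = 5.37e-06). The difference between the lines in the change was 3.21 ± 0.20 for sci1 (adjusted p = 2.98e-06) and -4.23 ± 0.31 for BX14 (adjusted p = 7.61e-06).

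hsp101, for a chaperone that releases proteins from aggregates, stood lower at severe than at any other stage of each line. hsp101 read 6.41 and 6.5 in control, 8.99 and 9.02 at moderate, 2.63 and 2.72 at severe and 6.58 and 6.24 at recovery in HKI1105. In V-372 hsp101 read 6.69 and 6.69 in control, 10.48 and 10.23 at moderate, 4.05 and 3.89 at severe and 7.74 and 7.89 at recovery. hsp101 rose by 3.73 ± 0.12 after drainage in HKI1105 (adjusted p = 1.1e-07) and rose by 3.85 ± 0.12 in V-372 (adjusted p = 1.73e-08). Of 12 annotated heat shock probe sets, hsp101 was the only member. At the same stages hsp18f averaged 10.62, 11.36, 6.56 and 9.45 in HKI1105. Its V-372 averages were 10.31, 13.34, 8.58 and 13.12. The temperature-induced lipocalin gene stayed high in V-372 after drainage. In HKI1105 the lipocalin gene had levels of 4.21 and 4.51 in control, 10.65 and 10.81 at moderate, 10.33 and 10.28 at severe and 6.22 and 6.47 at recovery. V-372 arrays of the lipocalin gene gave 6.08 and 6.17 in control, 11.32 and 11.24 at moderate, 10.69 and 10.81 at severe and 10.46 and 10.48 at recovery. The recovery arrays of HKI1105 were well below the severe ones, and those of V-372 were close to them. The lipocalin gene fell by 3.96 ± 0.11 after drainage in HKI1105 (adjusted p = 4.75e-08). In V-372 the change was -0.28 ± 0.11 (adjusted p = 0.0667), and the lines differed in it by -3.68 ± 0.16 (adjusted p = 2.7e-07).

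Of the 7 members of metabolism and transport, 4 rose and 3 fell after drainage in V-372. Over the array 28.8% of probe sets rose and 20.6% fell there. gln2, for glutamine synthetase, which fixes ammonium, was among the members that rose. HKI1105 arrays gave gln2 levels of 4.59 and 3.25 in control, 9.04 and 9.01 at moderate, 7.38 and 7.44 at severe and 8.46 and 8.54 at recovery. In V-372 gln2 was at 2.53 and 3.28 in control, 7.56 and 7.6 at moderate, 5.21 and 4.68 at severe and 8.16 and 8.47 at recovery. All arrays after the control stage were above the control arrays of their line. gln2 rose by 3.37 ± 0.4 after drainage in V-372 (adjusted p = 9.43e-05). In HKI1105 the change was 1.09 ± 0.40 (adjusted p = 0.0755). The plasma membrane aquaporin gene pip1f had its highest level at recovery. pip1f read 2.83 and 2.56 in control, 8.16 and 8.51 at moderate, 6.97 and 6.78 at severe and 9.26 and 9.24 at recovery in HKI1105. In V-372 pip1f read 2.02 and 2.33 in control, 5.97 and 5.97 at moderate, 4.16 and 4.0 at severe and 7.44 and 7.56 at recovery. From severe to recovery pip1f rose by 2.38 ± 0.15 in HKI1105 (adjusted p = 4.94e-06) and rose by 3.42 ± 0.15 in V-372 (adjusted p = 1.23e-07). sat1 had the same order of stages in both lines after moderate. In HKI1105 sat1 had levels of 4.56 and 4.82 in control, 7.83 and 8.13 at moderate, 7.49 and 7.34 at severe and 9.44 and 9.71 at recovery. V-372 arrays of sat1 gave 2.01 and 2.01 in control, 8.35 and 8.39 at moderate, 6.08 and 6.0 at severe and 8.77 and 8.66 at recovery. sat1 rose by 2.15 ± 0.13 after drainage in HKI1105 (adjusted p = 3.58e-06) and rose by 2.67 ± 0.13 in V-372 (adjusted p = 2.29e-07). The tryptophan synthase gene orp2 parted between the lines. HKI1105 arrays gave orp2 levels of 6.27 and 6.4 in control, 9.61 and 9.31 at moderate, 10.13 and 10.12 at severe and 8.13 and 8.4 at recovery. In V-372 orp2 was at 6.81 and 7.12 in control, 10.68 and 10.56 at moderate, 8.99 and 8.74 at severe and 9.61 and 9.66 at recovery. After drainage orp2 fell by 1.86 ± 0.15 in HKI1105 (adjusted p = 1.96e-05), and it rose by 0.77 ± 0.15 in V-372 (adjusted p = 0.00176).

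VTC2 carries the name of the Arabidopsis gene for an enzyme of ascorbate synthesis. VTC2 read 4.37 and 4.71 in control, 7.24 and 7.55 at moderate, 6.67 and 6.09 at severe and 5.45 and 5.61 at recovery in HKI1105. In V-372 VTC2 read 6.36 and 6.36 in control, 8.88 and 8.73 at moderate, 8.16 and 7.96 at severe and 5.57 and 5.33 at recovery. VTC2 fell by 0.85 ± 0.2 after drainage in HKI1105 (adjusted p = 0.0115) and fell by 2.61 ± 0.2 in V-372 (adjusted p = 5.09e-06). PPDK2, the cytosolic form of pyruvate phosphate dikinase, was highest at severe in V-372. In HKI1105 PPDK2 had levels of 7.8 and 7.9 in control, 11.13 and 10.67 at moderate, 10.82 and 10.86 at severe and 6.7 and 6.45 at recovery. V-372 arrays of PPDK2 gave 5.17 and 4.42 in control, 9.21 and 9.19 at moderate, 13.33 and 13.44 at severe and 5.41 and 6.22 at recovery. From severe to recovery PPDK2 fell by 4.26 ± 0.3 in HKI1105 (adjusted p = 1.04e-05) and fell by 7.57 ± 0.3 in V-372 (adjusted p = 6.99e-08). A second PPDK2 probe set disagreed with it: it was at or near the lowest value in every group except severe V-372 roots, where it averaged 9.41. gtr1 averaged 5.36, 8.83, 7.36 and 5.26 over the 4 stages in HKI1105 and 5.20, 7.60, 9.72 and 6.96 in V-372. Of 20 annotated probe sets for nitrogen and amino acid metabolism gln2 was a member. None of 51 for glutathione, peroxidase and oxygen radical enzymes met the rule, which 1.16% of all probe sets met.

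The 30 chloroplast members were the largest named group, and their severe and recovery levels were not used by the rule. Severe was below moderate for 29 of them in HKI1105 and above it for all 30 in V-372. At recovery their median against control was -0.38 in HKI1105, but single members ranged from -5.15 to 2.47, and 14 of 30 were within 1 log2 unit of control. In V-372 the median was 5.73, and 26 of 30 were still at least 5-fold over control. After drainage 29 of 30 fell in HKI1105 and 30 of 30 in V-372, with median changes of -4.30 and -3.12. The members of this group were set apart by name, with the course of many already known, so these counts describe them. The sum of leaf marker levels given above was also highest in severe V-372 roots. Of its 22 probe sets 12 are members, so it partly repeats the same values and is no separate observation. The part of leaf markers in these values was not tested.

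The light-harvesting proteins bind chlorophyll. Among their genes lhcb5 ranked first by the smaller of its rises in both lines. HKI1105 arrays gave lhcb5 levels of 7.27 and 6.16 in control, 12.57 and 12.63 at moderate, 11.36 and 11.43 at severe and 7.86 and 7.85 at recovery. In V-372 lhcb5 was at 4.44 and 4.64 in control, 11.58 and 11.5 at moderate, 13.26 and 13.23 at severe and 12.32 and 12.24 at recovery. Severe was above moderate on both arrays in V-372 and below it in HKI1105. lhcb5 fell by 3.54 ± 0.28 after drainage in HKI1105 (adjusted p = 1.96e-05) and fell by 0.96 ± 0.28 in V-372 (adjusted p = 0.0172). Lhcb5-2 read a related gene. Lhcb5-2 read 6.58 and 6.83 in control, 11.45 and 11.57 at moderate, 10.21 and 10.18 at severe and 5.07 and 5.06 at recovery in HKI1105. In V-372 Lhcb5-2 read 2.14 and 3.12 in control, 10.46 and 10.38 at moderate, 12.5 and 12.5 at severe and 10.5 and 10.49 at recovery. Between severe and recovery Lhcb5-2 fell by 5.12 ± 0.25 in HKI1105 (adjusted p = 1e-06) and fell by 2.0 ± 0.25 in V-372 (adjusted p = 0.00012). Cab-m7, another light-harvesting gene, had the largest fall after drainage among the chloroplast members of HKI1105. In HKI1105 Cab-m7 had levels of 8.07 and 8.19 in control, 11.97 and 12.11 at moderate, 10.2 and 10.16 at severe and 2.99 and 2.96 at recovery. V-372 arrays of Cab-m7 gave 3.24 and 3.07 in control, 10.71 and 10.63 at moderate, 12.47 and 12.47 at severe and 10.0 and 10.03 at recovery. Its recovery arrays were below its control arrays in HKI1105 and above them in V-372. Cab-m7 fell by 7.2 ± 0.06 after drainage in HKI1105 (adjusted p = 4.93e-11) and fell by 2.46 ± 0.06 in V-372 (adjusted p = 6.17e-09). The genes cab-m1, cp29, with 2 probe sets, and lhcb7 followed, with falls of 3.91 to 5.85 in HKI1105 and 2.26 to 3.72 in V-372, each called.

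Photosystem subunits came next. psaN belongs to photosystem I. HKI1105 arrays gave psaN levels of 5.44 and 5.97 in control, 11.23 and 11.4 at moderate, 10.6 and 10.64 at severe and 5.71 and 5.44 at recovery. In V-372 psaN was at 2.02 and 2.02 in control, 10.49 and 10.24 at moderate, 13.54 and 13.37 at severe and 11.95 and 11.83 at recovery. From severe to recovery psaN fell by 5.04 ± 0.17 in HKI1105 (adjusted p = 1.37e-07) and fell by 1.57 ± 0.17 in V-372 (adjusted p = 5.59e-05). psaH encodes a second subunit of it. psaH read 6.13 and 6.13 in control, 10.1 and 10.21 at moderate, 9.04 and 9.07 at severe and 6.35 and 6.52 at recovery in HKI1105. In V-372 psaH read 2.86 and 2.43 in control, 8.19 and 8.07 at moderate, 13.6 and 13.67 at severe and 9.82 and 9.8 at recovery. psaH fell by 2.62 ± 0.12 after drainage in HKI1105 (adjusted p = 8.23e-07) and fell by 3.82 ± 0.12 in V-372 (adjusted p = 1.81e-08). PSBQ1 belongs to the water-splitting complex of photosystem II. In HKI1105 PSBQ1 had levels of 3.5 and 4.24 in control, 9.2 and 9.52 at moderate, 8.76 and 8.75 at severe and 4.51 and 4.79 at recovery. V-372 arrays of PSBQ1 gave 2.35 and 2.29 in control, 8.12 and 8.21 at moderate, 11.79 and 11.74 at severe and 8.74 and 8.6 at recovery. Between severe and recovery PSBQ1 fell by 4.11 ± 0.21 in HKI1105 (adjusted p = 1.48e-06) and fell by 3.1 ± 0.21 in V-372 (adjusted p = 2.3e-06). psbs1 protects that photosystem from excess light. HKI1105 arrays gave psbs1 levels of 6.54 and 6.61 in control, 9.52 and 9.64 at moderate, 8.05 and 8.56 at severe and 2.91 and 3.22 at recovery. In V-372 psbs1 was at 2.53 and 2.42 in control, 7.39 and 7.46 at moderate, 13.01 and 13.2 at severe and 5.98 and 5.86 at recovery. Its fall in V-372 was the largest of the chloroplast members there. psbs1 fell by 5.24 ± 0.16 after drainage in HKI1105 (adjusted p = 8.32e-08) and fell by 7.18 ± 0.16 in V-372 (adjusted p = 2.53e-09). Other members of the electron transport chain were psa6, ris2, of the cytochrome complex, FDX1, a ferredoxin, and L-FNRII, a ferredoxin reductase.

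**Figure D4:**
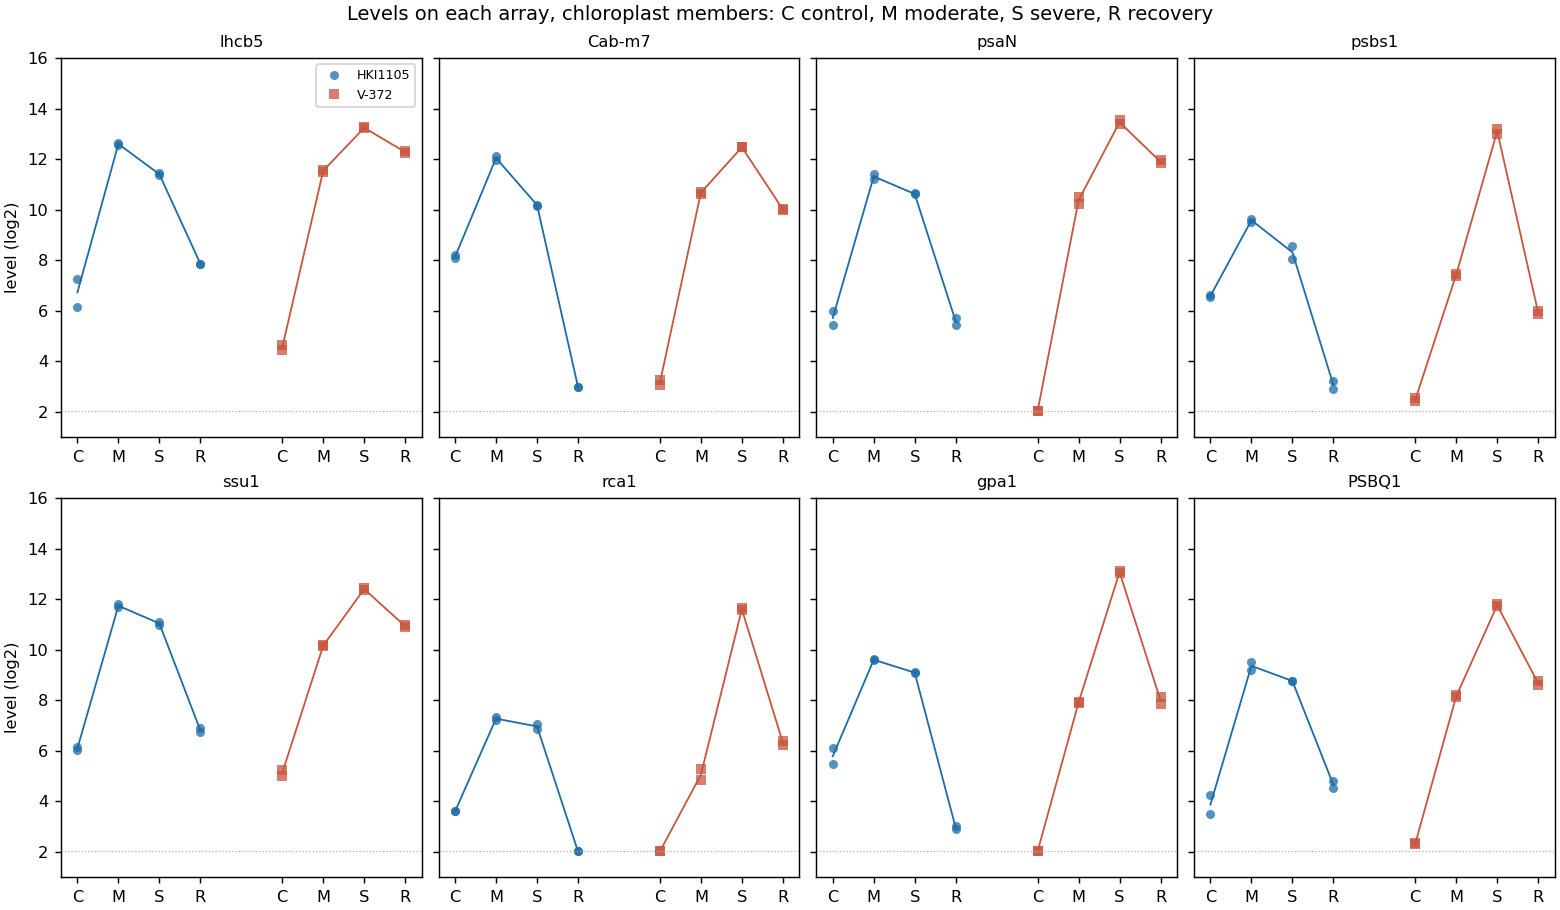
Log2 levels of 8 chloroplast members on every array, HKI1105 as blue circles at the left of each panel and V-372 as red squares at the right, with lines through the means of 2 arrays and the lowest value of the table dotted. Each gene is highest at moderate in HKI1105 and at severe in V-372, and psaN reads 10.49 and 10.24 at moderate and 13.54 and 13.37 at severe in V-372.

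Carbon fixation was represented by both parts of its machinery. ssu1 encodes the small subunit of rubisco. ssu1 read 6.03 and 6.15 in control, 11.68 and 11.81 at moderate, 11.09 and 10.99 at severe and 6.88 and 6.73 at recovery in HKI1105. In V-372 ssu1 read 4.99 and 5.25 in control, 10.17 and 10.15 at moderate, 12.43 and 12.38 at severe and 10.89 and 10.97 at recovery. From severe to recovery ssu1 fell by 4.23 ± 0.09 in HKI1105 (adjusted p = 9.08e-09) and fell by 1.47 ± 0.09 in V-372 (adjusted p = 1.08e-06). The probe sets for rbcS and for a described rubisco small subunit lie in the same cluster as ssu1 and can share transcripts with it. rca1 encodes rubisco activase. In HKI1105 rca1 had levels of 3.61 and 3.6 in control, 7.21 and 7.34 at moderate, 7.06 and 6.86 at severe and 2.01 and 2.01 at recovery. V-372 arrays of rca1 gave 2.01 and 2.01 in control, 5.28 and 4.83 at moderate, 11.56 and 11.64 at severe and 6.4 and 6.24 at recovery. It was at the lowest value in the V-372 control and in HKI1105 recovery. rca1 fell by 4.95 ± 0.13 after drainage in HKI1105 (adjusted p = 3.5e-08) and fell by 5.28 ± 0.13 in V-372 (adjusted p = 4.56e-09). gpa1 encodes the chloroplast glyceraldehyde phosphate dehydrogenase. HKI1105 arrays gave gpa1 levels of 5.47 and 6.09 in control, 9.58 and 9.63 at moderate, 9.11 and 9.07 at severe and 3.0 and 2.9 at recovery. In V-372 gpa1 was at 2.01 and 2.01 in control, 7.9 and 7.93 at moderate, 13.1 and 13.05 at severe and 7.85 and 8.13 at recovery. Between severe and recovery gpa1 fell by 6.14 ± 0.17 in HKI1105 (adjusted p = 3.89e-08) and fell by 5.08 ± 0.17 in V-372 (adjusted p = 2.11e-08). TPT, the triose phosphate transporter of the chloroplast envelope, averaged 8.66, 12.22, 10.93 and 5.55 over the 4 stages in HKI1105 and 6.45, 10.77, 14.52 and 10.18 in V-372.

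The annotation gives pdk1 the names of a C4 and of a cytosolic pyruvate phosphate dikinase, and which form was read here was not tested. Its probe sets lie in the same cluster as that of PPDK2 and can share transcripts with it. pdk1 had 3 member probe sets, counted with the chloroplast members, and high control levels. For the first the arrays read 10.92 and 10.92 in control, 13.77 and 13.87 at moderate, 13.74 and 13.79 at severe and 10.44 and 10.60 at recovery in HKI1105. In V-372 they read 10.59 and 10.56 in control, 13.13 and 13.16 at moderate, 15.21 and 14.99 at severe and 9.95 and 9.98 at recovery. For the second they read 9.49 and 9.65, 12.54 and 12.35, 12.29 and 12.46, and 8.68 and 8.68 at the same stages in HKI1105, and 8.35 and 8.62, 11.57 and 11.55, 14.43 and 14.57, and 8.57 and 8.50 in V-372. The third had means of 9.51, 12.64, 12.60 and 9.14 in HKI1105 and of 9.14, 11.87, 13.89 and 8.91 in V-372. Another probe set for pdk1 was at the lowest value in all groups, and yet another changed at moderate by 1.25 in HKI1105 but by -0.45 in V-372, so the probe sets disagree.

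Other plastid functions were those of sig1, a sigma factor of the plastid RNA polymerase, thi1, of thiamine synthesis, dxs1, the first enzyme of plastid isoprenoid synthesis, and sxd1, of tocopherol synthesis. dxs1 was the exception to the fall in HKI1105. dxs1 read 3.21 and 2.45 in control, 6.26 and 6.31 at moderate, 5.53 and 5.48 at severe and 5.29 and 5.3 at recovery in HKI1105. In V-372 dxs1 read 3.13 and 3.37 in control, 5.8 and 5.53 at moderate, 8.35 and 8.85 at severe and 5.37 and 5.71 at recovery. In HKI1105 severe and recovery arrays lay close together, and in V-372 severe stood above all other stages. The change after drainage was -0.21 ± 0.25 in HKI1105 (adjusted p = 0.747). dxs1 fell by 3.06 ± 0.25 after drainage in V-372 (adjusted p = 7.9e-06). A gene described as an ultraviolet-B-repressible protein had the largest rise of the group by the smaller of its rises in both lines. In HKI1105 this gene had levels of 6.23 and 6.47 in control, 12.55 and 12.62 at moderate, 11.53 and 11.58 at severe and 5.89 and 6.09 at recovery. V-372 arrays of this gene gave 2.59 and 2.94 in control, 11.18 and 11.16 at moderate, 13.71 and 13.87 at severe and 11.45 and 11.52 at recovery. This gene fell by 5.57 ± 0.12 after drainage in HKI1105 (adjusted p = 1.11e-08) and fell by 2.31 ± 0.12 in V-372 (adjusted p = 4.62e-07).

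Of the 22 leaf marker probe sets in the annotation, 14 were at least 5-fold higher at moderate in HKI1105 and 13 in V-372, with median changes of 3.06 and 2.89. Over the array 5.98% of probe sets were so in HKI1105 and 2.37% in V-372. Among the 22 leaf markers 12 are members and met this by the rule, so these counts and medians are descriptions. Those that were not members included the probe sets for CP24, a light-harvesting protein. For 1 of these the mean was 9.88 in moderate and 5.78 in control roots of HKI1105, and at the lowest value in both for V-372. Another CP24 probe set averaged 6.63 in moderate and 4.7 in control roots of HKI1105. Its V-372 means were 6.18 at moderate, 4.65 in control and 8.34 at severe, so the probe sets for CP24 disagree. The gene ME1 of the C4 cycle averaged 7.1 in moderate and 5.28 in control roots of HKI1105, and 8.11 in moderate and 3.97 in control roots of V-372. Of 10 root marker probe sets none was a member, where 1.16% of all probe sets were.

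Among the unnamed members that of gene model GRMZM2G037327 had the largest rise of all 205 when each was ranked by the smaller of its rises in both lines. HKI1105 arrays gave GRMZM2G037327 levels of 3.57 and 2.49 in control, 11.33 and 11.6 at moderate, 10.27 and 10.0 at severe and 7.85 and 8.15 at recovery. In V-372 GRMZM2G037327 was at 2.92 and 2.11 in control, 12.44 and 12.4 at moderate, 6.66 and 6.81 at severe and 6.28 and 6.58 at recovery. The severe arrays stayed close to moderate in HKI1105 and dropped far below it in V-372. GRMZM2G037327 fell by 2.14 ± 0.36 after drainage in HKI1105 (adjusted p = 0.00193). In V-372 the change was -0.31 ± 0.36 (adjusted p = 0.627). That of GRMZM2G055135 came second. GRMZM2G055135 read 2.35 and 2.01 in control, 11.55 and 11.5 at moderate, 10.83 and 10.82 at severe and 6.17 and 6.1 at recovery in HKI1105. In V-372 GRMZM2G055135 read 3.64 and 4.03 in control, 11.64 and 11.51 at moderate, 9.46 and 9.73 at severe and 9.33 and 9.27 at recovery. Every array after the control stage was above the control arrays. GRMZM2G055135 fell by 4.69 ± 0.15 after drainage in HKI1105 (adjusted p = 9.1e-08). In V-372 the change was -0.29 ± 0.15 (adjusted p = 0.144). Both were highest at moderate. Of the 150 unnamed members 127 were highest at moderate in HKI1105, and in V-372 80 were highest at moderate, 60 at severe and 10 at recovery. After drainage 105 fell and 22 rose in HKI1105, and 103 fell and 29 rose in V-372.

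The lines were then compared at the stages that the rule did not use. In severe roots 64 members were higher and 112 lower in HKI1105 than in V-372, against 27.2% higher and 21.5% lower over all probe sets. The median difference of the members was -1.23. The named groups differed in direction: all 30 chloroplast members were lower in HKI1105, with a median of -2.92, and of the 25 other named members 14 were higher and 9 lower, with a median of 1.01. Of the 4 regulators EREB179 and LOB15 were higher in HKI1105 by the differences given above, and ERF1 by only 0.25 ± 0.07 (adjusted p = 0.0195). ERF-like1 was lower, by -1.33 ± 0.32 (adjusted p = 0.00749). Of the 6 cell wall members 5 were higher. At recovery 34 members were higher and 116 lower in HKI1105, against 18.2% and 21.4% of all probe sets. There 26 of 30 chloroplast members were lower and 1 higher, with a median of -4.13. Among the 25 other named members 7 were higher and 8 lower, with a median of 0.18.

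**Figure D5:**
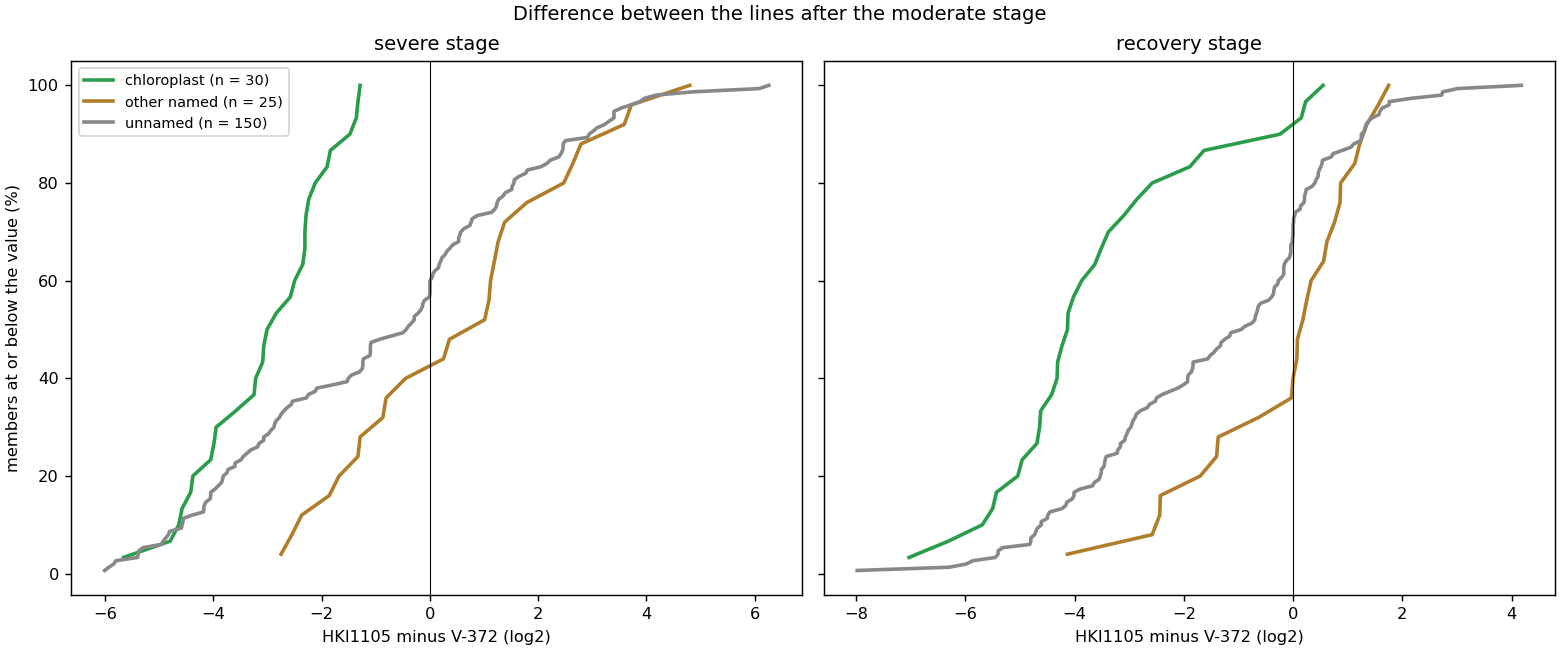
HKI1105 minus V-372 on the log2 scale at the severe and the recovery stage, as the percentage of members at or below each value, for 30 chloroplast, 25 other named and 150 unnamed members. All chloroplast members lie below 0 at the severe stage, and the curve of the other named members crosses 0 in both panels.

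The change after drainage differed between the lines for 141 members. It was higher in HKI1105 for 52 and lower for 89, against 17.9% and 22.9% of all probe sets. Where it was lower, HKI1105 fell further or rose less than V-372. For the chloroplast members 7 were higher and 13 lower, so that the sign of the difference was mixed.

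The thresholds of the study, p at most 0.001 and 5-fold, were also applied to these comparisons. After drainage 8 members rose and 100 fell in HKI1105, where 1.07% of all probe sets rose and 1.05% fell. For V-372 the counts were 21 and 90, against 2.73% rising and 5.4% falling. The change after drainage was higher in HKI1105 for 17 members and lower for 44, against 4.51% and 2.42% of all probe sets. In severe roots 29 members were higher and 75 lower in HKI1105, against 3.47% and 5.48%. At recovery 87 passed in either direction, against 4.36%, and of these 4 were higher and 83 lower in HKI1105.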

How the data were processed

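The deposited values are log2 levels that the authors made with GCRMA (background correction, normalization between arrays and a summary per probe set) from scans of the Affymetrix GeneChip Maize Genome Array. The GCRMA version is not given in the sources used here. All 17734 probe sets on 16 arrays were kept and not scaled again. Array medians were 6.92 to 7.18, and the number of arrays limits the precision.

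Group means were fitted with limma 3.58.1 (R 4.3.3) over the 8 groups, and p-values were adjusted after Benjamini and Hochberg, over every probe set. Values after ± are standard errors. Only differences among the severe and recovery group means were tested. The spread behind each standard error and p-value was estimated from all 16 arrays. It therefore also draws on the control and moderate arrays that chose the members. On simulated data, with 17734 probe sets per comparison, 84 of 100 changes of 1 log2 unit and 98 of 100 of 2.5 were found, with 8 false calls, in recovery minus severe of HKI1105. The simulated noise was normal around 1 mean per probe set and had no lowest value, and few probe sets were changed. These counts therefore need not hold for the real arrays.

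Members were named from the platform annotation (30), the gene models of a supplementary table with RefSeq synonyms of Zm-B73-REFERENCE-NAM-5.0 (16) and its own symbols (3), and descriptions in a supplementary table, with the primer table (6). Descriptions in another supplementary table were out of register with their probe sets and were not used. A symbol or description allowed a member to be named; values on every array are given for members of the gene lists, for the 5 named and 2 unnamed members with the largest smaller rise, and for those whose change after drainage differed by 5-fold between the lines, plus further named members chosen after their values were seen. The members and the 17 gene lists were chosen with earlier results of these data known, and 3 wrong matches were taken out. Alternatives were other normalizations, filters, thresholds and fits, and each array left out.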

Additional observations from a re-analysis of the deposited data

Results flagged for a closer look

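The change between severe and recovery differed between HKI1105 and V-372 for 141 of the members, each by its own interaction term in the limma fit (adjusted p under 0.05). It was lower in HKI1105 for 89 members and higher for 52, against 22.9% lower and 17.9% higher over all probe sets. All named members with a called difference of at least 5-fold are given next, as HKI1105 minus V-372 on the log2 scale.

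Of the members outside the chloroplast group, EREB179 differed by -4.47, with severe and recovery levels of V-372 within 1 log2 unit of the lowest value, LOB15 by -2.5, BX14 by -4.23, the temperature-induced lipocalin by -3.68 and orp2 by -2.63. Those with the opposite sign were pdc1 at 3.0, sci1 at 3.21 and PPDK2 at 3.31. In the chloroplast group the light-harvesting genes had the larger fall in HKI1105: lhcb5 differed by -2.58, Lhcb5-2 by -3.12, cab-m1 by -3.47 and Cab-m7 by -4.74, the last pair with HKI1105 recovery levels within 1 log2 unit of the lowest value. The photosystem gene psaN differed by -3.48, the rubisco gene ssu1 by -2.76 and the ultraviolet-B-repressible protein by -3.26. dxs1 had the opposite sign, at 2.85.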

How the results depend on the processing

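The number of members was 199 to 209 with each array left out in turn, 254 at a threshold of 2 log2 units and 131 at 3. It was 200 after quantile normalization, 202 after median scaling and 180 where every moderate array had to exceed every control array of its line 5-fold. It was 252 with the V-372 control in place of the HKI1105 control. Under the thresholds of the study, which ask for more, the counts fell by construction: between severe and recovery HKI1105 had 8 members rising and 100 falling, and V-372 had 21 rising and 90 falling. The change differed upward for 17 and downward for 44. HKI1105 was above V-372 for 29 and below it for 75 at severe, and above it for 4 and below it for 83 at recovery.

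Leaving out each array gave, for recovery minus severe, 21 to 29 higher and 145 to 154 lower in HKI1105, and 34 to 37 higher and 142 to 148 lower in V-372. The change differed for 45 to 55 upward and 82 to 94 downward. HKI1105 was higher for 59 to 65 and lower for 109 to 115 at severe, and higher for 31 to 39 and lower for 113 to 120 at recovery.

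Members 5-fold over control, under alternatives chosen after seeing the data, were 138 to 144 at severe and 48 to 54 at recovery in HKI1105. For V-372 they were 124 to 132 at severe and 125 to 129 at recovery.

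Replicate numbers did not pair the arrays: over 28 pairs of groups their deviations correlated at -0.16 to 0.203. With the replicate number as a block, HKI1105 had 27 members rising and 151 falling, and V-372 had 36 rising and 147 falling. Of 6050 results of named members under 22 alternatives, 5893 kept direction and side of the threshold, 106 lost the call, 51 gained it and 0 reversed. The 2 arrays per group limit all p-values, and a level near the lowest value has no lower reading.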
